A study of Mus musculus with 6 samples.

Results

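The receptor chains for the myeloid cytokines GM-CSF, IL-3, IL-5, G-CSF and IL-6 are encoded by 8 genes, Csf2ra, Csf2rb, Csf2rb2, Il3ra, Il5ra, Csf3r, Il6ra and Il6st. They were taken by symbol from a table of 23337 genes, in which all 8 had a row. The cells were mouse hematopoietic stem and progenitor cells (HSPCs) carrying MLL-AF9, a fusion of 2 genes found in acute leukemia that transforms such cells in culture. Cells in pro-lymphoid culture gave 3 libraries (lymphoid replicates 1, 5 and 6), and cells in pro-myeloid culture gave another 3 (myeloid replicates 2, 3 and 4). All 6 libraries carry the same oncogene, so no untransformed cells stand beside them. The labels name neither the cytokines added to each culture nor the mouse strain, and do not say whether libraries came from separate cultures, clones or animals. The p-values therefore rest only on how far these libraries vary, and that variation may be technical. In bulk RNA, fewer cells with a transcript and less of it per cell cannot be told apart.

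Receptors of this class sit at the cell surface without enzymatic activity of their own and pass the signal on through bound JAK kinases to STAT factors. The receptors for GM-CSF, IL-3 and IL-5 each pair a ligand-specific alpha chain (Csf2ra, Il3ra, Il5ra) with a common beta chain encoded by Csf2rb. The mouse has a second beta gene, Csf2rb2, whose product serves IL-3. The G-CSF receptor is built from copies of 1 chain, Csf3r. The IL-6 receptor joins the ligand-binding chain Il6ra to the signaling chain gp130, encoded by Il6st, which related cytokines use as well. GM-CSF, IL-3 and G-CSF drive growth and maturation of granulocytes and macrophages.

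The libraries held 34972488 to 46724382 counts. The first principal component parted the cultures (82.3% of the variance). On the second (7.91%) myeloid replicate 2 lay at 52.9, away from myeloid replicates 3 and 4 at -32.0 and -19.5. Of 5 stem and progenitor markers (Kit, Cd34, Flt3, Hoxa9 and Meis1), all were detected in both cultures, with a summed level of 939 to 1021 CPM (counts scaled to library size) in pro-lymphoid and 442 to 502 CPM in pro-myeloid libraries. Of these markers 3 rose (Kit, Cd34 and Flt3) and 2 fell (Hoxa9 and Meis1), where 38.6% of all tested genes changed by the rule given below. Flt3 and Cd34 together held most of each pro-lymphoid sum. Globin genes and the T cell gene Cd3e had 0 counts in all libraries. The MLL-AF9 transcript itself was not analysed here. CPM values carry TMM scaling, which evens out differences in composition between libraries, and log2 fold changes are given as pro-lymphoid over pro-myeloid.

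The myeloid cytokine receptor chains were mostly lower in pro-lymphoid culture. Of the 8 genes, 5 fell (Csf2ra, Csf2rb, Csf2rb2, Csf3r and Il6st), 0 rose, 2 did not pass (Il3ra and Il6ra), and Il5ra had no reads. At an unadjusted p under 0.05, 1 chain was higher (Il6ra), as it was with DESeq2 and with limma-voom after adjustment. By the main rule, an adjusted p under 0.05 in edgeR's quasi-likelihood test, 38.6% of all 12477 tested genes changed, 21.3% lower and 17.4% higher. The median log2 fold change of the 7 tested chains was -2.28, against -0.00 over all tested genes. A fall of at least 2-fold that passed the test was seen for the same 5 chains and for 13.1% of all tested genes. A rise of that size was seen for 0 chains and 7.89% of tested genes, and a change of that size in either direction for 21.0%. The cultures did not overlap for 6 chains (5 lower and 1, Il6ra, higher), and for 53.5% of tested genes (27.2% lower and 26.4% higher). The 7 tested chains had at least 526 counts in every library, so none passed the filter on low counts through 1 culture alone. The 8 chains summed to 493, 413 and 251 CPM in lymphoid replicates 1, 5 and 6, against 1181, 2128 and 1338 CPM in myeloid replicates 2, 3 and 4.

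**Figure D1:**
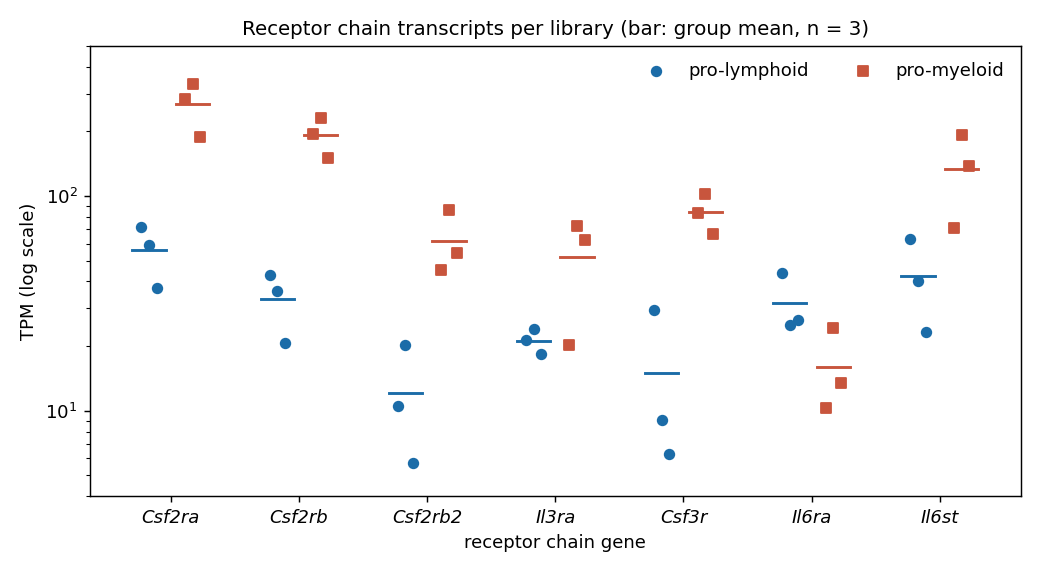
TPM, a level per exon length (y axis, log scale), of the 7 receptor chain genes with reads (x axis), where each circle is 1 of 3 pro-lymphoid libraries, each square 1 of 3 pro-myeloid ones and a bar the mean of 3. The circles of Csf2ra, Csf2rb, Csf2rb2, Csf3r and Il6st lie below all squares of the same gene, those of Il6ra lie above all squares, and Il3ra overlaps because myeloid replicate 2 stands at 20.3 TPM.

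Csf2ra and Csf2rb, which together form the GM-CSF receptor, were lower to a similar degree. Csf2ra, the ligand-binding alpha chain (mm10, chromosome 19, 61224402 to 61228418, minus strand), had 63.8, 60.3 and 37.7 CPM in lymphoid replicates 1, 5 and 6, against 252, 348 and 188 CPM in myeloid replicates 2, 3 and 4. The highest pro-lymphoid value was well under the lowest pro-myeloid one, a gap of 2.94-fold. The log2 fold change was -2.28 ± 0.28 (SE, edgeR adjusted p = 0.000957), or 4.87-fold lower. Csf2rb, the common beta chain that carries the signal of all 3 beta-sharing receptors (chromosome 15, 78325990 to 78351001, plus strand), stood at 98.2, 95.4 and 53.6 CPM in the pro-lymphoid libraries, against 447, 621 and 390 CPM in the pro-myeloid libraries. Here the gap between the groups was 3.97-fold, the widest of the chains. The log2 fold change was -2.56 ± 0.28 (SE, edgeR adjusted p = 0.000602), or 5.90-fold lower. In both genes lymphoid replicate 6 was the lowest library and myeloid replicate 3 the highest.

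Monocytes and macrophages carry GM-CSF receptors. Of 9 tested markers of these cells, 0 rose (1, Cx3cr1, at an unadjusted p under 0.05 in edgeR), 2 fell (Ly6c2 and F13a1) and 7 did not pass. Of all tested genes 21.3% fell, a share close to that of this list. The 9 markers summed to 2540, 1436 and 1002 CPM in lymphoid replicates 1, 5 and 6, against 2889, 4787 and 3185 CPM in myeloid replicates 2, 3 and 4. Within each culture the libraries thus had the same order in this sum as in the sum of the 8 chains, and no marker of the list was at 0. Their part in the lower receptor transcripts was not tested.

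Csf2rb2 lies beside Csf2rb on chromosome 15 (78282510 to 78305603, minus strand), and the genes are close copies. Their coding sequences were 92.9% identical over 2694 aligned columns (GENCODE M21 transcripts, GRCm38). Of the 100-base windows of the Csf2rb transcript, as long as a read in this study, 7.16% occurred unchanged in the Csf2rb2 transcript and 24.5% with up to 2 mismatches. For Csf2rb2 the shares were 7.20% and 24.6%. The first 120 coding bases, from the start codon, are shown as an example of how the copies differ. Capitals mark the 4 bases that differ. A 100-base window within this stretch spans more than 2 of them, so it is not shared with the aligned bases by the measure above.
Csf2rb: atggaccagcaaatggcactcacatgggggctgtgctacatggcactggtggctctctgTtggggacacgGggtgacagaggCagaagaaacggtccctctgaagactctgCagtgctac
Csf2rb2: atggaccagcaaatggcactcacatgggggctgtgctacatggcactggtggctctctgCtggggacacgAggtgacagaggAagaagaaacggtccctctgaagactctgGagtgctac

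Csf2rb2, the mouse beta chain of the IL-3 receptor, was also lower in pro-lymphoid culture. It had 23.5, 51.4 and 14.4 CPM in lymphoid replicates 1, 5 and 6, against 101, 226 and 136 CPM in myeloid replicates 2, 3 and 4. The groups did not overlap, with lymphoid replicate 5 nearest to the pro-myeloid values. The log2 fold change was -2.38 ± 0.50 (SE, edgeR adjusted p = 0.00889), or 5.19-fold lower. Without lymphoid replicate 5 it was -3.02 (edgeR adjusted p = 0.00381). With the counts of the copies added up as 1 gene, the log2 fold change was -2.51 ± 0.32 (SE, edgeR adjusted p = 0.00112), a value that does not depend on how reads were divided between them. The level of each copy remains uncertain, since a read from a shared stretch can be assigned to either.

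Il3ra, the alpha chain that gives the IL-3 receptor its specificity (chromosome 14, 14346495 to 14355490, plus strand), did not pass the test. It had 14.3, 18.4 and 13.96 CPM in lymphoid replicates 1, 5 and 6, against 13.7, 57.5 and 47.3 CPM in myeloid replicates 2, 3 and 4. The pro-lymphoid values were close together, and myeloid replicate 2, the library that stands apart, lay at their level while its partners were higher. For Il3ra the log2 fold change was -1.34 ± 0.47 (SE, edgeR adjusted p = 0.0575). Without myeloid replicate 2 it was -1.75 (edgeR adjusted p = 0.000484), and DESeq2 on all 6 libraries gave an adjusted p of 0.0100. Over all alternatives the adjusted p ran from 0.000484 to 0.167. An antisense gene of GENCODE M21 covers 3.30% of its counted exon bases, and the counting did not use strand.

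Il5ra, the alpha chain of the IL-5 receptor found on eosinophils and some B cells (chromosome 6, 106710379 to 106749037, minus strand), had 0 counts in all 6 libraries. With 3 counts as the limit that a count of 0 allows, its level was at most 0.0650 to 0.0888 CPM per library, which covers counting error only. Eosinophil markers were sparse as well. Of 8 markers, Epx (eosinophil peroxidase), Ear1 and Ear6 had 0 counts in all libraries, and the list summed to 13.2 to 16.4 CPM in pro-lymphoid and 4.69 to 13.9 CPM in pro-myeloid libraries, mostly from Siglecf, counted under its older symbol Siglec5. Of the 2 tested markers 1 was higher, where 17.4% of all tested genes rose. This marker, Prg2, encodes eosinophil major basic protein. It had 56 counts in the pro-lymphoid libraries together and 4 in the pro-myeloid ones (edgeR adjusted p = 0.00854). Of the common beta chain's alpha partners, those of GM-CSF and IL-3 thus had reads in every library and that of IL-5 in none.

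Csf3r, the G-CSF receptor gene (chromosome 4, 126024659 to 126044975, plus strand), was lower in pro-lymphoid culture with a wide spread there. It had 57.2, 20.2 and 13.9 CPM in lymphoid replicates 1, 5 and 6, against 162, 235 and 146 CPM in myeloid replicates 2, 3 and 4. Lymphoid replicate 1 was 4.11 times lymphoid replicate 6 and still 2.55-fold below the lowest pro-myeloid library. Its log2 fold change was -2.58 ± 0.52 (SE, edgeR adjusted p = 0.00737), or 5.96-fold lower. Without lymphoid replicate 1 it was -3.41 (edgeR adjusted p = 0.000710), and over all alternatives it ran from -3.41 to -2.23, with adjusted p-values of 3.11e-07 to 0.0284.

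Neutrophil markers moved in the same direction as Csf3r, which neutrophils and their precursors carry. Of 12 neutrophil markers 9 were tested, of which 0 rose and 8 fell, where 21.3% of all tested genes fell. The list summed to 194 to 392 CPM in pro-lymphoid and 4784 to 9242 CPM in pro-myeloid libraries. Elane, Mpo, Prtn3 and Ctsg held most of every sum, and Mpo alone ran from 148 to 3305 CPM over the pro-myeloid libraries. Ltf, Camp and Mmp9 had too few reads to be tested, and Mmp8 did not pass. No marker of the list was at 0 in a whole group. Within pro-lymphoid culture the list had 320, 194 and 392 CPM in replicates 1, 5 and 6, so that the library with the most Csf3r was not the one with the highest sum of this list. Mast cell and basophil markers summed to 13.3 to 34.7 CPM in pro-lymphoid and 78.1 to 156 CPM in pro-myeloid libraries. Of these 10 markers 4 were tested and 3 fell (Mcpt8, Ms4a2 and Hdc), where 21.3% of all tested genes fell. Hdc had 0.521, 29.8 and 76.3 CPM in myeloid replicates 2, 3 and 4. Myeloid replicate 2 was thus under all pro-lymphoid libraries, which had 0.942 to 1.63 CPM of Hdc. Gata2, which did not pass (edgeR adjusted p = 0.0558), held most of the pro-lymphoid sums and 146 CPM of the highest pro-myeloid sum, that of myeloid replicate 2. The mast cell protease genes Mcpt4, Tpsb2, Tpsab1 and Cma1 and the IgE receptor gene Fcer1a had 0 counts in all libraries. The part of either list in the lower receptor transcripts was not tested.

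The chains of the IL-6 receptor went different ways. Il6st, which encodes gp130 (chromosome 13, 112464070 to 112506860, plus strand), had 165, 122 and 69.2 CPM in lymphoid replicates 1, 5 and 6, against 187, 593 and 407 CPM in myeloid replicates 2, 3 and 4. The groups were separated by 1.13-fold, since myeloid replicate 2 came close to lymphoid replicate 1. The log2 fold change was -1.74 ± 0.46 (SE, edgeR adjusted p = 0.0212), or 3.34-fold lower. Its call was lost without lymphoid replicate 5 (log2 fold change -1.75, edgeR adjusted p = 0.0604), lymphoid replicate 6 (-1.46, 0.0687), myeloid replicate 3 (-1.33, 0.0609) or myeloid replicate 4 (-1.71, 0.0548).

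Il6ra, the ligand-binding chain (chromosome 3, 89869324 to 89913162, minus strand), was the 1 chain with a higher mean in pro-lymphoid culture. It had 70.3, 46.1 and 48.4 CPM in lymphoid replicates 1, 5 and 6, against 16.7, 46.0 and 24.4 CPM in myeloid replicates 2, 3 and 4. The groups touched, as lymphoid replicate 5 and myeloid replicate 3 were nearly equal. At 0.92 ± 0.36 (SE), the log2 fold change did not pass (edgeR adjusted p = 0.0821). DESeq2 and limma-voom gave adjusted p-values of 0.0322 and 0.0474. Without myeloid replicate 3 the log2 fold change was 1.41 (edgeR adjusted p = 0.0103), and over all alternatives the adjusted p ran from 0.0103 to 0.213. An antisense gene of GENCODE M21 covers 6.22% of its counted exon bases, and its reads could not be told apart from those of Il6ra.

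**Figure D2:**
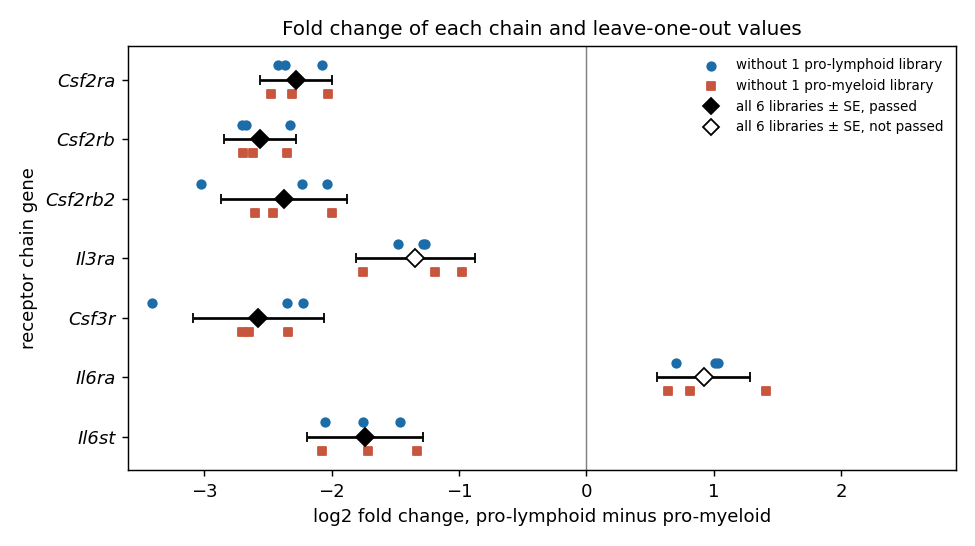
Log2 fold change, pro-lymphoid minus pro-myeloid (x axis), of the 7 tested receptor chain genes (y axis), as diamonds with SE from all 6 libraries, filled where the adjusted p was under 0.05, with values without 1 pro-lymphoid (circles) or 1 pro-myeloid library (squares). All diamonds but that of Il6ra (0.92) lie left of 0, and the circle of Csf3r at -3.41 is the value without lymphoid replicate 1.

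Levels of different genes were compared per exon length, as TPM computed from the counts. In pro-lymphoid culture Csf2ra had the highest mean level (56.1 ± 17.5 TPM), followed by Il6st (42.2 ± 20.0), Csf2rb (33.3 ± 11.5), Il6ra (31.7 ± 10.4), Il3ra (21.2 ± 2.81), Csf3r (14.9 ± 12.6) and Csf2rb2 (12.2 ± 7.37 TPM, SD, n = 3 each). In that order the ranges of neighbors overlapped throughout, except between Il6ra (25.0 to 43.8 TPM) and Il3ra (18.3 to 23.95 TPM). In pro-myeloid culture the order was Csf2ra (267 ± 73.4 TPM), Csf2rb (192 ± 39.7), Il6st (134 ± 60.6), Csf3r (84.1 ± 18.1), Csf2rb2 (62.0 ± 21.7), Il3ra (51.9 ± 27.8) and Il6ra (16.0 ± 7.33 TPM, SD, n = 3 each). There the ranges of all neighbors overlapped. Within libraries, Csf2ra exceeded Csf2rb, Csf2rb exceeded Il6st, Csf3r exceeded Csf2rb2 and Il3ra exceeded Il6ra in 3 of 3. Il6st exceeded Csf3r, and Csf2rb2 exceeded Il3ra, in 2 of 3. By mean level Il6ra thus stood in the fourth place in pro-lymphoid culture and last among the chains with reads in pro-myeloid culture. Its place after Csf2rb in pro-lymphoid culture held for the mean only, since Csf2rb exceeded it in 1 of 3 libraries. Among all tested genes, the mean level of Csf2ra exceeded that of 76.1% in pro-lymphoid and 95.6% in pro-myeloid libraries, and that of Il6ra exceeded 62.4% and 44.6%.

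Pairs of chains were set against each other within each library, so that library scaling drops out. Of the 6 pairs, Csf3r with Il6st and Il3ra with Csf2ra join chains of different receptors. The largest of the 6 differences was in the IL-6 receptor. Il6ra was 0.694, 0.618 and 1.14 times Il6st in lymphoid replicates 1, 5 and 6, against 0.146, 0.126 and 0.0977 times in myeloid replicates 2, 3 and 4. The ligand-binding chain thus came near to gp130 in pro-lymphoid culture and stayed far under it in pro-myeloid culture, a difference of 2.70 in the mean log2 ratio (exact permutation p = 0.1, two-sided, adjusted p = 0.15 over 6 ratios). With 3 against 3 libraries, 0.1 is the smallest p this test can give. Without any single library the difference ran from 2.43 to 2.87.

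Of the alpha chains of the beta-sharing receptors, Csf2ra and Il3ra could be set against Csf2rb. Neither ratio could pass the test, since its smallest possible p is 0.1. Csf2ra was 1.67, 1.63 and 1.81 times Csf2rb in the pro-lymphoid libraries, against 1.45, 1.44 and 1.24 times in the pro-myeloid libraries, so the GM-CSF chains kept a ratio between 1 and 2 in every library. The groups did not overlap (difference in mean log2 ratio 0.31, exact permutation p = 0.1, adjusted p = 0.15). Both statements hold for Csf2rb counted alone and depend on how reads were divided between the copies. With Csf2rb2 added to Csf2rb as the shared chain, the difference was 0.27. The groups then overlapped, and the ratio of myeloid replicate 4 was under 1. Il3ra was 0.498, 0.660 and 0.891 times Csf2rb in the pro-lymphoid libraries, against 0.105, 0.316 and 0.415 times in the pro-myeloid libraries, again without overlap. The difference was 1.47 on the log2 scale (exact permutation p = 0.1, adjusted p = 0.15), and 0.87 without myeloid replicate 2, whose ratio was the lowest. Relative to Csf2ra, Il3ra overlapped between the groups (exact permutation p = 0.2, adjusted p = 0.24).

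Csf2rb2 was 0.247, 0.556 and 0.277 times Csf2rb in the pro-lymphoid libraries, against 0.233, 0.376 and 0.358 times in the pro-myeloid libraries. These overlapped (difference 0.09 on the log2 scale, exact permutation p = 0.8), and the sign turned without lymphoid replicate 5 (-0.27) or myeloid replicate 2 (-0.13). Csf3r was 0.466, 0.224 and 0.271 times Il6st in the pro-lymphoid libraries, against 1.17, 0.535 and 0.484 times in the pro-myeloid libraries (difference -1.14 on the log2 scale, exact permutation p = 0.1, adjusted p = 0.15).

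**Figure D3:**
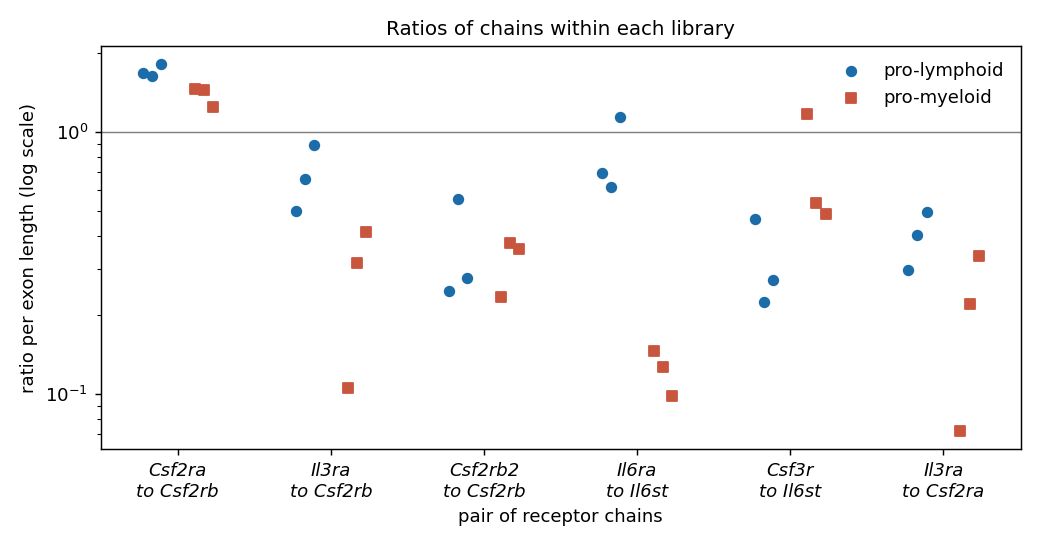
Ratio of 2 receptor chain genes per exon length (y axis, log scale, line at 1) in each pro-lymphoid (circles) and pro-myeloid (squares) library, for 6 pairs (x axis). Il6ra to Il6st lies between 0.618 and 1.14 in pro-lymphoid and between 0.0977 and 0.146 in pro-myeloid libraries, while Csf2rb2 to Csf2rb overlaps.

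The 250 bases before the start site of each chain were read from RefSeq promoter windows (GRCm38.p6), which matched 7 of the 8 genes, all but Csf2rb. They were searched on both strands for letters that resemble sites of factors known from receptor promoters. GAGGAA, the core bound by PU.1, occurred in 4 of the 7 windows (Csf2ra, Csf2rb2, Csf3r and Il6ra), against 23.3% of all 32851 windows. Csf2ra held it 2 times in a row. The matches are printed 5′ to 3′ on each gene's strand within 30 bases, because they occur both in chains that fell and in Il6ra. Capitals mark GAGGAA or its reverse complement.
Csf2ra (chr19:61228419-61228448, minus strand): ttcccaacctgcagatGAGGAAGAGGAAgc
Csf2rb2 (chr15:78305871-78305900, minus strand): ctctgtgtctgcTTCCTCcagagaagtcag
Csf3r (chr4:126024561-126024590, plus strand): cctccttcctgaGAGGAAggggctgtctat
Il6ra (chr3:89913249-89913278, minus strand): cttcagcaccggTTCCTCaaatgtttcact

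The C/EBP-like letters TTNNNCAA occurred in 3 windows (Csf2ra, Il3ra and Il6ra, overlapping GAGGAA in Il6ra), against 33.3% of all windows. The STAT-like letters TTCNNNGAA occurred in that of Csf2rb2 (7.02% of all), the GATA-like letters AGATAA in those of Il5ra and Il6ra (9.99%) and the RUNX-like letters TGTGGT in 0 of 7 (14%). A match is a description of these windows and not a bound site.

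Genes with the profile most like each chain were taken as those with the smallest distance between centered log2 CPM profiles over the 6 libraries, among 9305 genes with at least 5 CPM in the higher group, the chains themselves left out. Predicted genes and clone names were left out too. The name rule also drops named genes whose symbol starts with a letter from A to E and a digit. Among the 9305 genes, the closest to any chain was Apobr, which encodes a lipoprotein receptor of macrophages, at a distance of 0.303 from Csf2ra. It stood at 22.7 ± 6.94 CPM in pro-lymphoid and 115 ± 25.8 CPM in pro-myeloid culture (SD, n = 3 each), and Plod1, a collagen lysyl hydroxylase gene, was the next gene outside the chains (0.488). Csf2rb was nearest to Ecm1 (0.323) and Emb (0.357). Emb, which encodes the adhesion protein embigin, stood at 202 ± 53.4 CPM in pro-lymphoid and 1229 ± 190 CPM in pro-myeloid culture (SD, n = 3 each). Csf2ra and Csf2rb were 0.435 apart, so that each resembled the other about as closely as its nearest genes. The nearest genes were Gp49a (0.648) and Fcgrt (0.726) for Csf2rb2, Espnl (0.604) and Aldh3b1 (0.703) for Csf3r, Apobec1 (0.488) and Rnf43 (0.680) for Il6st, Sytl1 (0.393) and Ampd3 (0.406) for Il3ra, and Lst1 (0.435) and Chrnb2 (0.547) for Il6ra. Among the tested chains, Il6ra had its nearest fellow chain, Il3ra, at 2.84, whereas every other chain had one no farther than 1.21.

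The ligands of these receptors were nearly silent. In the 3 pro-lymphoid libraries together, Csf2 had 19 counts, Il6 23, Csf3 1, Il5 0 and Il3 0. In the 3 pro-myeloid libraries Csf2 had 3 counts, Il6 3, Csf3 3, Il5 1 and Il3 0. None of the 5 passed the filter, and their summed level was 0.209 to 0.575 CPM in pro-lymphoid and 0.0217 to 0.148 CPM in pro-myeloid libraries. Of 8 ligands of other gp130 receptors 4 were tested, of which 1 rose and 2 fell, where 38.6% of all tested genes changed. Clcf1 rose (log2 fold change 1.46 ± 0.36, edgeR adjusted p = 0.0172), while Il27 (-3.61 ± 0.44) and Osm, which encodes oncostatin M (-1.41 ± 0.44), fell. Without lymphoid replicate 5, 1 of these 4 passed. Ebi3, the partner subunit of Il27, stood at 120 ± 26.4 CPM in pro-lymphoid and 57.2 ± 38.7 CPM in pro-myeloid culture without passing (SD, n = 3 each, edgeR adjusted p = 0.0967).

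Among 7 other receptor chains of the gp130 family 5 were tested, 1 rising and 1 falling, where 38.6% of all tested genes changed. The median log2 fold change of the 5 was 0.09. Osmr, the oncostatin M receptor chain that pairs with gp130, had no read in pro-lymphoid libraries (0 counts) against a sum of 390 counts in pro-myeloid ones, which made it at least 129-fold lower, by a limit of 3 counts over the group (edgeR adjusted p = 0.00501). Il31ra rose, with a log2 fold change of 1.98 ± 0.60 (edgeR adjusted p = 0.0352). With DESeq2, with an older form of the edgeR test (an alternative chosen after seeing the data), or without lymphoid replicate 1, 5 or 6 or myeloid replicate 4, 1 of these 5 genes passed. Lifr, the LIF receptor chain, stood at 27.7 ± 10.9 CPM in pro-lymphoid and 26.2 ± 25.7 CPM in pro-myeloid culture (SD, n = 3 each, edgeR adjusted p = 0.938).

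Kinases, STAT factors and adaptors downstream of the receptors make a list of 20 genes, all tested. Of these 6 fell, 1 rose and 13 did not pass, where 38.6% of all tested genes changed, with a median log2 fold change of -0.32. The adaptor Gab2 had a log2 fold change of -1.18 ± 0.15 (edgeR adjusted p = 0.00113) and the tyrosine kinase Fes one of -0.98 ± 0.22 (0.0113). Stat3, the main STAT factor of gp130 and of the G-CSF receptor, stood at 151 ± 11.9 CPM in pro-lymphoid and 271 ± 38.3 CPM in pro-myeloid culture (SD, n = 3 each, edgeR adjusted p = 0.00277). Without lymphoid replicate 5 or 6, 4 genes of this list passed. Outside the rule for named genes, and chosen after their values were seen, Jak2, the kinase bound to the common beta chain, stood at 51.2 ± 4.10 CPM in pro-lymphoid and 60.8 ± 10.7 CPM in pro-myeloid culture (SD, n = 3 each, edgeR adjusted p = 0.246). Jak1 (edgeR adjusted p = 0.740), Stat5a (0.653) and Stat5b (0.126) did not pass either.

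Negative regulators of cytokine signals, 13 of them tested, were mixed. Higher levels were called for 4 and lower ones for 2, while 7 did not pass, where 38.6% of all tested genes changed. The median log2 fold change of the 13 was 0.05. Socs3, which binds gp130 and the G-CSF receptor and blocks their signal, stood at 7.08 ± 1.11 CPM in pro-lymphoid and 50.2 ± 1.95 CPM in pro-myeloid culture (SD, n = 3 each). This is a log2 fold change of -2.83 ± 0.16 (SE, edgeR adjusted p = 3.3e-05). Cish, a STAT5-induced relative of Socs3, had a log2 fold change of -1.58 ± 0.31, whereas the adaptor Dok2 (2.22 ± 0.27) and the ubiquitin ligase Cblb (0.82 ± 0.14) were higher.

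Of 11 STAT target genes, 3 rose, 5 fell and 3 did not pass (median log2 fold change -0.54), Osm being counted here as well. Among all tested genes, 38.6% changed, 21.3% lower and 17.4% higher. Pim1, a kinase gene induced by STAT5 and STAT3, stood at 48.6 ± 21.1 CPM in pro-lymphoid and 383 ± 37.8 CPM in pro-myeloid culture (SD, n = 3 each, log2 fold change -2.98 ± 0.30, edgeR adjusted p = 0.000388). Id1 (log2 fold change -4.59 ± 0.39) and Junb (-1.31 ± 0.21) fell as well, while Ccnd2, which encodes cyclin D2, rose (1.47 ± 0.17). The sheddase genes Adam10 and Adam17, whose enzymes release IL-6 receptor from the cell surface, and Rhbdf2, a partner of ADAM17, all fell, with log2 fold changes of -1.31 ± 0.16 for Adam10, -0.73 ± 0.17 for Adam17 and -1.04 ± 0.28 for Rhbdf2. All 3 passed with all libraries, where 21.3% of all tested genes fell. Without lymphoid replicate 6, 1 of these 3 passed.

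Among 9 tested genes of transcription factors known at these receptors' promoters, 0 rose, 7 fell and 2 did not pass. Of all tested genes 21.3% fell and 17.4% rose. Also at an unadjusted p under 0.05 in edgeR 0 of the 9 rose, and their median log2 fold change was -1.77. Cebpa, needed for G-CSF receptor expression in granulocyte precursors, stood at 125 ± 27.1 CPM in pro-lymphoid and 492 ± 126 CPM in pro-myeloid culture (SD, n = 3 each, log2 fold change -1.98 ± 0.24, edgeR adjusted p = 0.00089), and Cebpb had a log2 fold change of -2.37 ± 0.28. Cebpe (-8.71 ± 0.39) and Gfi1 (-8.91 ± 0.26), both needed for granulocyte maturation, were almost without reads in pro-lymphoid culture. These lists were chosen with earlier results of these data known and are not independent evidence of a direction.

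**Figure D4:**
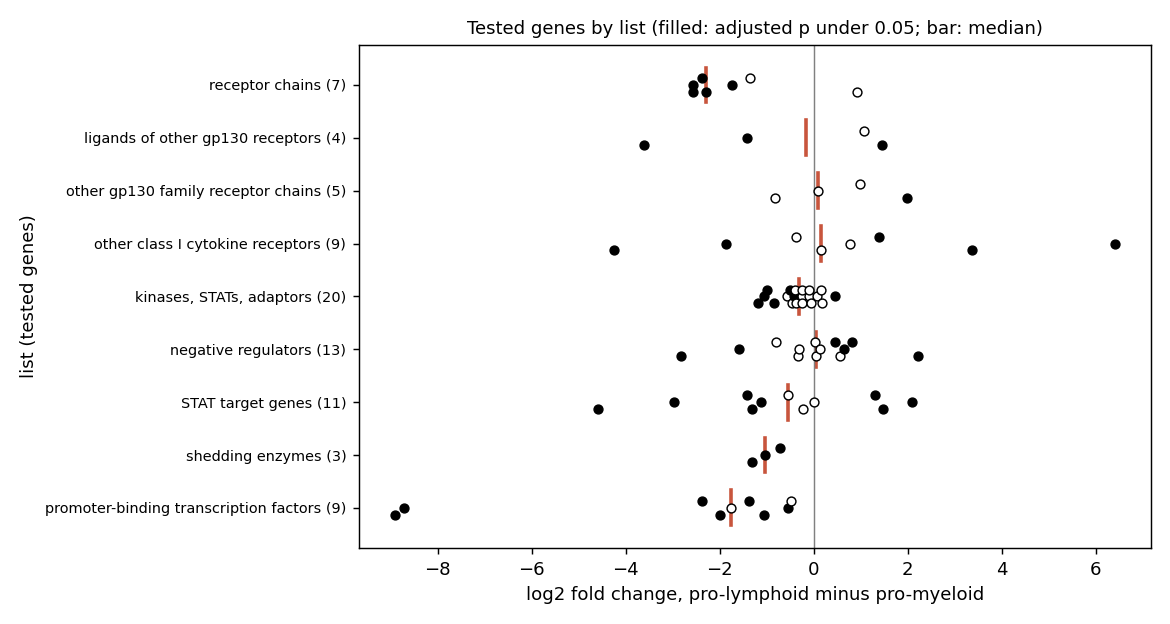
Log2 fold change, pro-lymphoid minus pro-myeloid (x axis), of the tested genes of the receptor chains and 8 related lists (y axis, tested genes in brackets), filled where the adjusted p was under 0.05, with a bar at each median. Osmr and Ghr, with 0 counts over the pro-lymphoid libraries, are not drawn, and the receptor chains have the lowest median (-2.28) of the lists shown.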

How the data were processed

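The authors deposited 1 table of raw read counts per gene. featureCounts 1.5.1 made it from UCSC exons of mm10, with no strand setting and primary alignments kept, per the file headers. Trimmomatic, Bowtie, TopHat and DESeq2 also appear, per the submitters' processing notes, with settings not given in the sources used here. Per the labels' protocols, poly(A) RNA was sequenced as 100-base single-end reads. A read that fits both of 2 close copies is thus counted 1 time, on either. The exon length beside each gene, another deposited column, was used for TPM.

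The count test was edgeR 4.0.16 in R 4.3.3: filterByExpr, TMM scaling, quasi-likelihood F test with adjusted deviances, two-sided, Benjamini-Hochberg adjustment over 12477 genes at 0.05. SE came from the F statistic. Ratios of chains were compared with exact permutation tests. The procedure was tested on simulated counts. Coding sequences were aligned with Biopython 1.88. A planned search of proteins was not done. Replicate numbers do not recur between cultures. The members and lists were chosen with earlier results of these data known. Of 185 list entries, 3 were found under an older symbol. Genes named were the chains, up to 4 tested genes per list with the smallest adjusted p, and the 2 nearest profiles per chain. Alternatives were other scalings, filters and tests (DESeq2 1.42.0, limma-voom 3.58.1), summed beta chains and each library left out. Floors and limits at 3 counts cover counting error only, whereas SE and SD also hold variation between libraries. 2 genes of the lists are not reported here by name.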

Additional observations from a re-analysis of the deposited data

How the results depend on the processing

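No paired analysis was possible because the cultures share no replicate number. Csf2ra, Csf2rb, Csf2rb2 and Csf3r passed as lower under every alternative run for them, in which their log2 fold changes ran from -3.41 to -2.00. Il6st passed under all alternatives except 4 that leave out a library (-2.08 to -1.33 over the 6), the cause of which was not tested. Il3ra passed with DESeq2 (-1.34, adjusted p = 0.0100) and without myeloid replicate 2, with -1.75 to -0.98 over single libraries left out. Il6ra passed with DESeq2 (0.92, adjusted p = 0.0322), limma-voom (1.04, adjusted p = 0.0474) and without myeloid replicate 3, with 0.64 to 1.41 over single libraries left out. The cause was not tested. The number of chains called as higher was therefore 1 with DESeq2 and 1 with limma-voom, and 0 to 1 with a library left out. Chains called in either direction numbered 4 to 7 over all alternatives, and 4 with the copies Csf2rb and Csf2rb2 summed into 1. The ratio of Csf2rb2 to Csf2rb differed by -0.27 to 0.31 on the log2 scale with a library left out. With a minimum log2 fold change of 1, 2620 genes passed, 985 higher and 1635 lower, of 4821, 2169 and 2652, since fewer can qualify. With a library left out 3086 to 5385 passed, 1298 to 2478 higher and 1788 to 2907 lower. The lowest counts came without lymphoid replicate 6, and 1394 were higher without myeloid replicate 4. Without lymphoid replicate 6, 1 ligand gene was called. The older quasi-likelihood method, an alternative chosen after seeing the data, called 4665 genes and the same number of chains. Of 410 values recomputed in all, 377 kept their direction and their side of the threshold or their size. Depth limits what can be said of Il5ra and of the ligand genes, which had 23 counts or fewer per group.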

Other observations

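Class I cytokine receptors outside the myeloid chains moved both ways. Of 16 such genes 9 were tested, of which 3 rose, 3 fell and 3 did not pass. All tested genes moved both ways as well, with 17.4% higher and 21.3% lower. The median log2 fold change of the 9 was 0.16. Il7r, the IL-7 receptor chain of early lymphoid cells, stood at 14.6 ± 5.09 CPM in pro-lymphoid and 0.171 ± 0.0165 CPM in pro-myeloid culture (SD, n = 3 each, edgeR adjusted p = 9.49e-05). Il12rb2, a chain of the IL-12 receptor, stood at 11.2 ± 2.44 CPM in pro-lymphoid and 1.09 ± 0.160 CPM in pro-myeloid culture (SD, n = 3 each, edgeR adjusted p = 0.000183). Il13ra1, which binds IL-13 and pairs with the IL-4 receptor chain, stood at 1.69 ± 0.342 CPM in pro-lymphoid and 32.5 ± 8.05 CPM in pro-myeloid culture (SD, n = 3 each, edgeR adjusted p = 5.25e-05), and Ghr was at least 578-fold lower. The next 2 genes lie outside the rule for named genes and were chosen after their values were seen. Il2rg, the common gamma chain shared by the receptors of IL-7 and other lymphoid cytokines, stood at 165 ± 21.9 CPM in pro-lymphoid and 148 ± 47.1 CPM in pro-myeloid culture (SD, n = 3 each, edgeR adjusted p = 0.596). Epor, the receptor of erythropoietin, was close to silent, with 29 counts in the pro-lymphoid libraries together and 15 in the pro-myeloid libraries.

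Markers of other lineages were mostly low. Beside the counts of called markers below, 38.6% of all tested genes changed, 21.3% lower and 17.4% higher. B lineage markers summed to 25.0 to 34.9 CPM in pro-lymphoid and 29.5 to 54.5 CPM in pro-myeloid libraries, with 2 of 4 tested genes lower. Most of every B lineage sum was Cd79b, which did not pass (edgeR adjusted p = 0.135). T and NK cell markers summed to 1.76 to 3.37 CPM in pro-lymphoid and 1.27 to 2.82 CPM in pro-myeloid libraries, and megakaryocyte markers to 3.90 to 6.89 CPM in pro-lymphoid and 2.94 to 4.66 CPM in pro-myeloid libraries. Erythroid markers summed to 0.549 to 1.14 CPM in pro-lymphoid and 0.990 to 1.11 CPM in pro-myeloid libraries. Stroma markers summed to 1.90 to 19.4 CPM in pro-lymphoid and 5.54 to 17.2 CPM in pro-myeloid libraries, with the matrix genes Col1a2, Col3a1, Dcn and Lum at 0 in all. Pdgfrb held most of every stroma sum. Plasmacytoid dendritic cell markers were more abundant, at 420 to 718 CPM in pro-lymphoid and 503 to 652 CPM in pro-myeloid libraries, with 3 of 5 tested genes higher and 1 lower. The lower gene, Tcf4, was the largest part of every sum (means of 320 CPM in pro-lymphoid and 492 CPM in pro-myeloid culture). The sums therefore hide the 3 higher genes. Siglech, 1 of them, stood at 50.3 ± 43.2 CPM in pro-lymphoid and 0.559 ± 0.664 CPM in pro-myeloid culture (SD, n = 3 each).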
